A study of Homo sapiens with 10 samples.

Results

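The transcriptional co-activators YAP (gene YAP1) and TAZ (gene WWTR1), their 4 DNA-binding partners TEAD1, TEAD2, TEAD3 and TEAD4, and the target genes CCN1, CCN2, ANKRD1 and AMOTL2 were described across 5 human prostate cancer cell lines. These 10 genes were taken by name, and all 10 were found among the 60642 gene symbols of the deposited expression table. The table holds bulk RNA-seq values of untreated cultures of LNCaP, DUCAP, VCAP, DU145 and PC3, 10 samples in all, with each line in 2 biological repeats. Every line was grown without any added agent in RPMI medium free of phenol red, with fetal bovine serum given as 5% in the methods and as a range reaching 10% in the labels, and was harvested while growing exponentially. Each line stands for 1 tumor: LNCaP (clone FGC) came from a lymph node metastasis, DU145 from a brain metastasis and PC3 from a bone metastasis, while DUCAP and VCAP came from separate metastases of the same patient.

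YAP and TAZ are paralogous proteins that bind no DNA themselves. In cells at high density or on soft substrate the Hippo kinase cascade (STK3 and STK4, then LATS1 and LATS2) phosphorylates them and keeps them in the cytoplasm, whereas unphosphorylated YAP and TAZ enter the nucleus, bind TEAD factors and switch on genes of proliferation, matrix and cytoskeleton. Much of this control acts on the proteins, which an mRNA level does not report. CCN1, CCN2, ANKRD1 and AMOTL2 are widely used as readouts of YAP/TAZ-TEAD activity, and in prostate epithelium YAP is mainly known from basal cells.

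TEAD factors recognize the sequence GGAATG, which reads CATTCC on the opposite strand. The 250 bases before the transcription start of 2 target genes are shown here because those genes held several copies, in the direction of the gene and with each copy in capitals. They come from RefSeq and its GRCh38.p14 annotation. The CCN2 sequence lies at chr6:131951373-131951622 on the minus strand and held 3 copies, whose first bases were at positions −169, −104 and −95, where −1 is the base before the start. The ANKRD1 sequence lies at chr10:90921088-90921337 on the minus strand and held 2 copies, at −220 and −128. For AMOTL2, 30 bases around a single copy at chr3:134374499-134374528 are given (minus strand, −69 from 1 of its annotated starts).
CCN2: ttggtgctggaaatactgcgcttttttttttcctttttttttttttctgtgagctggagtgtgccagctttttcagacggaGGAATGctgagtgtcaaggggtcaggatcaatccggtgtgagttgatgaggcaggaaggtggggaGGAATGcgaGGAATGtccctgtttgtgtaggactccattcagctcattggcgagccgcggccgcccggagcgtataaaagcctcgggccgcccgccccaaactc
ANKRD1: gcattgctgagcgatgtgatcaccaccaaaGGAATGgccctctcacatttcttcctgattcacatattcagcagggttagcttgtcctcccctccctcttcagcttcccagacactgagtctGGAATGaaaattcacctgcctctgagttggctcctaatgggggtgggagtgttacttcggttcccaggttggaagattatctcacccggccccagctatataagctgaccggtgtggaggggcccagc
AMOTL2: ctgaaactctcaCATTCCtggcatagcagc
Both strands were searched and no other motif was. Windows were found for 7 of the 10 genes (10 windows, since some genes have several starts). YAP1 held 1 copy at −162. WWTR1, TEAD2 and TEAD3 held none of these letters in their windows, and CCN1, TEAD1 and TEAD4 had no window. Of all 35116 windows of this length, 11.9% held at least 1 copy, 0.94% at least 2 and 0.0826% (29 windows) at least 3. Among 18 other YAP/TAZ target genes, described further on, 13 had a window and 5 of these held the motif (AXL, FOXF2, NUAK2, PTPN14 and TGFB2). These are counts of genes, where a copy in any window of a gene suffices, and cannot be set beside the shares of windows. A match describes the sequence only, and binding was not measured.

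Levels are given in TPM, RSEM's transcript abundance, which is scaled by gene length and to a fixed total per sample, so that levels of different genes can be set side by side. The number of reads behind a value is unknown, because TPM keep no depth. Differences were tested with limma on log2(TPM + 1) over the 17520 genes that reached 1 TPM in at least 2 samples, with Benjamini-Hochberg adjustment at 0.05 over all of them. On this scale the change of a gene with low values is understated. All 10 genes entered the test, but ANKRD1 passed the filter only through DU145, and CCN2 only through DU145 and PC3. The p-values measure the spread between repeats of these 5 lines and do not speak of prostate cancer lines in general.

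Mitochondrial transcripts took 12.7 to 36.0% of the TPM, most in DUCAP and VCAP, and 1661 genes differed at least 2-fold between the DU145 repeats, against 158 to 372 in the other lines. The labelled cell types were checked against marker genes. Of 4 epithelial markers, the keratins KRT8 and KRT18 were above 98 TPM in every sample and 1.36 and 1.48 higher (log2 difference) in the mean of DU145 and PC3 than in the mean of the other lines, whereas EPCAM and CDH1 were 1.92 and 3.05 lower. EPCAM was at 23.43 and 25 TPM in PC3, and CDH1 at 3.78 and 9.74. All 5 prostate luminal markers (KLK2, KLK3, TMPRSS2, FOLH1 and HOXB13) were lower in the mean of DU145 and PC3 than in the mean of the other lines, but not in each line. In DU145 each was under 1 TPM, whereas PC3 held 328 and 502 TPM of HOXB13, above the 52.1 to 201 TPM of LNCaP, DUCAP and VCAP, and 4.97 and 40.9 TPM of FOLH1, above the 1.77 and 1.99 TPM of DUCAP. ERG, the fusion oncogene of DUCAP and VCAP, was at 122 to 199 TPM there and under 1 TPM elsewhere. Of the markers of cells the cultures should lack, the fibroblast genes COL1A2, DCN and PDGFRB, the endothelial genes PECAM1 and CDH5 and the leukocyte genes PTPRC and CD3E stayed under 1 TPM in every sample. COL1A1 reached 38.0 TPM, in PC3, and summed fibroblast marker levels ran from 32.8 to 39.4 TPM in PC3 and from 1.08 to 7.24 TPM in the other 4 lines. LUM reached 5.35 TPM in VCAP, VWF 5.45 TPM in LNCaP and CD14 1.43 TPM in DU145. The part of these transcripts in the results below was not tested.

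In the deposited TPM, all 10 genes were higher in DU145 and PC3 than in LNCaP, DUCAP and VCAP. For each gene, all 4 samples of the first 2 lines lay above all 6 of the other 3. After quantile normalization this separation did not hold for TEAD1 and TEAD4. There the mean of DUCAP lay above that of PC3 by 0.65 and 0.50 (adjusted p = 0.0040 and 0.047, limma). For TEAD3, the mean of VCAP then lay only 0.14 below that of PC3 (adjusted p = 0.64, limma). Under median-ratio scaling the separation did not hold for TEAD1 either, with DUCAP 0.57 above PC3 (adjusted p = 0.0046, limma). Single samples of the other genes were not compared after scaling. Between the 2 sets of lines, each line counting equally, the 10 genes had a median difference of 3.57 on the log2 scale. The median of all tested genes was 0.40. Of all tested genes, 51.9% were called higher in DU145 and PC3 and 22.5% lower, and 19.8% had the 4 samples above the other 6. For CCN2 and ANKRD1 the higher call was fixed by the filter, as they stayed under 1 TPM in LNCaP, DUCAP and VCAP. Both are part of the count and the median above. The other members reached 1 TPM in at least 1 of those lines, and of the 15855 tested genes that did, 47.1% were higher. Across the 5 lines, all 10 genes were called by the F test, as were 90.8% of all tested genes, so a call in that test sets few genes apart. Beside the shift of the median gene, the differences fell into a large class (WWTR1, CCN1, CCN2, AMOTL2, TEAD2 and YAP1, from 2.97 to 5.83) and a small class (TEAD1, TEAD3 and TEAD4, from 0.61 to 1.26). ANKRD1 stood apart, since it was listed at 0 in 6 samples. In bulk RNA, fewer expressing cells and less RNA in each cell cannot be told apart.

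**Figure D1:**
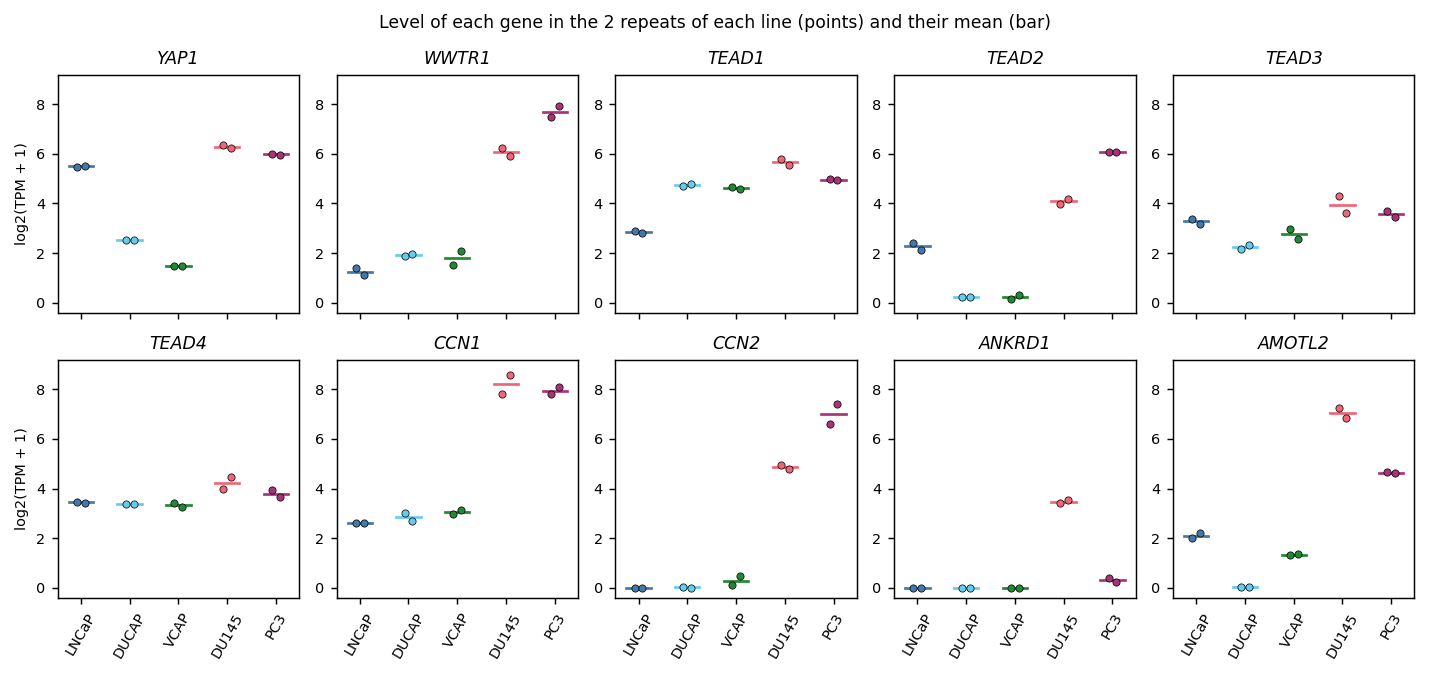
The plot of levels by sample gives log2(TPM + 1) of each of the 10 genes on the vertical axis and the 5 lines on the horizontal axis, with a point per repeat and a bar at the mean of the 2 repeats. DU145 and PC3 lie above the other lines in every panel, and YAP1 of LNCaP lies near them. For ANKRD1 the PC3 points are barely above 0 (0.30 and 0.17 TPM), and only DU145 is clearly raised.

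YAP1 mRNA formed a high and a low class of lines, and LNCaP belonged to the high one. YAP1 (chr11:102110447-102233424, GRCh38.p14) stood at 80.7 and 74.3 TPM in the DU145 repeats, at 63.5 and 60.6 in PC3, at 43.3 and 45.2 in LNCaP, at 4.77 and 4.77 in DUCAP and at 1.78 and 1.80 in VCAP. The repeats of a line lay close together, and no 2 lines overlapped. DU145 and PC3 exceeded the other 3 lines by 2.97 ± 0.08 (SE; adjusted p = 2.1e-08, limma). Most of this came from DUCAP and VCAP: LNCaP was 9.27-fold above DUCAP in mean TPM (log2 difference 2.97 ± 0.12) and 24.7-fold above VCAP (4.02 ± 0.12), but only 0.48 ± 0.12 below PC3 (adjusted p = 0.0095, limma). That last difference had an adjusted p of 0.10 in limma after quantile normalization, and of 0.053 without LNCaP repeat 1 and 0.050 without PC3 repeat 1. DU145 and PC3 did not pass the test against each other (0.32 ± 0.12, adjusted p = 0.061, limma), but did with an adjusted p of 0.028 to 0.039 under 4 other scalings or filters. DUCAP and VCAP differed by 1.05 ± 0.12 (adjusted p = 0.00089, limma).

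WWTR1 mRNA was low in all 3 lines other than DU145 and PC3, LNCaP included. WWTR1 (chr3:149517235-149724788) stood at 178 and 240 TPM in the PC3 repeats, at 73.6 and 59.9 in DU145, at 2.64 and 2.91 in DUCAP, at 1.86 and 3.25 in VCAP and at 1.62 and 1.15 in LNCaP. The lowest DU145 sample was far above the highest sample of the low lines, at 3.25 TPM. DU145 and PC3 lay above the other 3 lines by 5.23 ± 0.15 (adjusted p = 3.2e-08, limma). PC3 exceeded DU145 by 3.13-fold in mean TPM (1.62 ± 0.24, adjusted p = 0.00075, limma). Among the low lines, LNCaP lay 0.67 ± 0.24 below DUCAP (adjusted p = 0.039, limma), a call lost when any 1 of the 4 samples of the pair was left out (adjusted p 0.067 to 0.20). Neither VCAP and DUCAP nor VCAP and LNCaP passed the test (adjusted p = 0.84 and 0.077, limma). The gap between VCAP and LNCaP of 0.55 was called, at 0.81 to 0.91, under 4 other settings (adjusted p 0.014 to 0.044), and without VCAP repeat 1 (adjusted p = 0.026).

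The 2 co-activators therefore stood in different proportions from line to line. YAP1 made up 96.4 and 97.5% of the summed YAP1 and WWTR1 TPM of the LNCaP samples, 64.4 and 62.1% for DUCAP, 52.3 and 55.4% for DU145, 48.9 and 35.6% for VCAP, and 26.3 and 20.2% for PC3. YAP1 prevailed in LNCaP, WWTR1 in PC3, and the 2 were near balance in DU145. The order of the lines by this share differs from their order by level, as VCAP and DU145, neighbours by share, had summed levels of 3.64 to 5.05 TPM and of 134 to 154 TPM. The log2 ratio of YAP1 to WWTR1 (1 TPM added to each) was 2.26 lower in DU145 and PC3 than in the other lines, with a two-sided exact permutation p of 0.4 over whole lines and 0.10 over the 10 samples. Only 10 arrangements of 5 lines exist, so the first of these tests cannot go below 0.1. It also counts DUCAP and VCAP, from the same patient, as separate lines. The second test counts the 2 repeats of a line as separate units, which they are not for a property of the line.

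**Figure D2:**
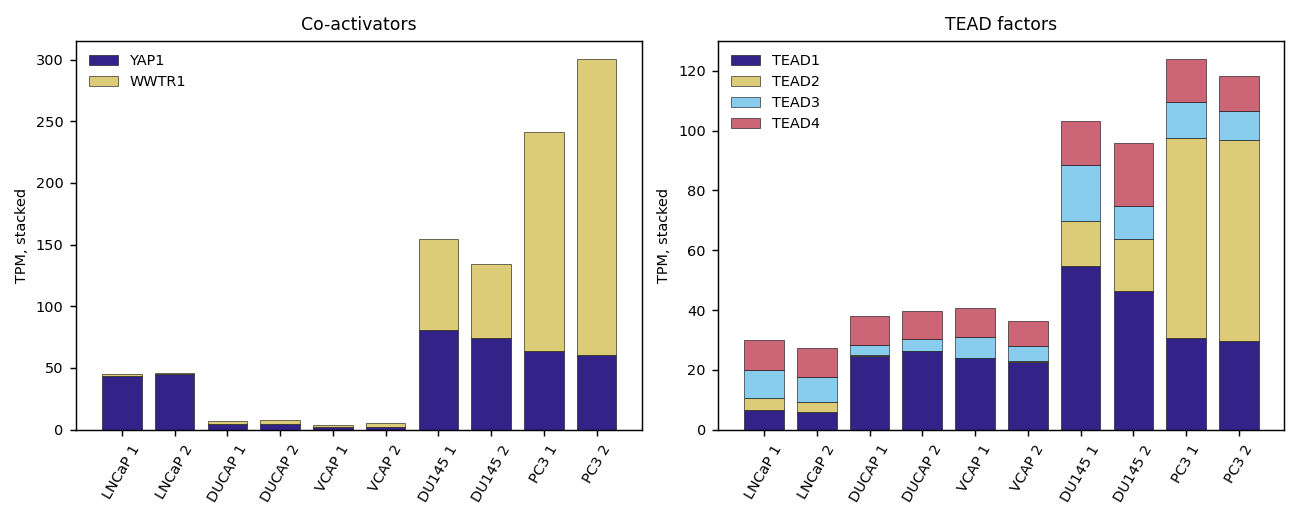
The stacked bars give the TPM of YAP1 and WWTR1 (left) and of the 4 TEAD genes (right) in each of the 10 samples, labelled by line and repeat. LNCaP holds almost pure YAP1, PC3 holds mostly WWTR1 and TEAD2, and TEAD2 is barely visible in DUCAP and VCAP.

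Among the TEAD factors, TEAD2 differed most between lines and TEAD4 least. TEAD1 (chr11:12674421-12944737), the most widely expressed paralog, stood at 54.9 and 46.3 TPM in the DU145 repeats, at 30.6 and 29.5 in PC3, at 24.7 and 26.3 in DUCAP, at 24.0 and 22.8 in VCAP and at 6.48 and 5.94 in LNCaP. LNCaP was the low line and DU145 the high one. The difference between the 2 sets of lines was 1.26 ± 0.09 (adjusted p = 3.2e-06, limma). VCAP exceeded LNCaP by 1.76 ± 0.14 (adjusted p = 1.4e-05, limma), and DU145 exceeded PC3 by 0.73 ± 0.14 (adjusted p = 0.0025, limma). PC3 and DUCAP did not pass the test (0.23 ± 0.14, adjusted p = 0.17, limma), and here the scaling set the direction: DUCAP was higher than PC3 by 0.65 (adjusted p = 0.0040) with quantile normalization and by 0.57 (adjusted p = 0.0046) with median-ratio scaling. DU145 lay 0.96 above DUCAP, but only 0.19 above it after either scaling (adjusted p = 0.28 and 0.22).

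TEAD2 (chr19:49340595-49362416), best known from the early embryo, stood at 67.1 and 67.3 TPM in the PC3 repeats, at 14.9 and 17.3 in DU145, at 4.24 and 3.41 in LNCaP, at 0.12 and 0.23 in VCAP and at 0.17 and 0.17 in DUCAP. It stayed under 1 TPM in the 4 DUCAP and VCAP samples and formed 4 separate levels, with DUCAP and VCAP sharing the lowest. The steps from VCAP to LNCaP (2.03 ± 0.16), from LNCaP to DU145 (1.82 ± 0.16) and from DU145 to PC3 (2.00 ± 0.16) each passed the test, with adjusted p of 1.6e-05, 2.6e-05 and 2.3e-05 in limma. DUCAP and VCAP differed by 0.0046 ± 0.16. Between the 2 sets of lines the difference was 4.18 ± 0.10 (adjusted p = 1.6e-08, limma).

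TEAD3 (chr6:35473597-35497079) stood at 18.7 and 11.2 TPM in the DU145 repeats, at 11.97 and 9.95 in PC3, at 9.28 and 8.11 in LNCaP, at 6.76 and 4.86 in VCAP and at 3.46 and 3.95 in DUCAP. TEAD4 (chr12:2959397-3040676) stood at 14.7 and 20.9 TPM in the DU145 repeats, at 14.2 and 11.6 in PC3, at 9.89 and 9.82 in LNCaP, at 9.50 and 9.42 in DUCAP and at 9.70 and 8.59 in VCAP. Both genes had their highest sample in DU145, whose repeats were also the farthest apart, and no neighbouring lines in the order of either gene passed the test. Some of these pairs did in other fits. For TEAD4, DUCAP lay above LNCaP by 0.66 under quantile normalization and 0.65 under median-ratio scaling (adjusted p = 0.018 and 0.015), where the unscaled order was the opposite by 0.05, and DU145 lay above PC3 in the mitochondria-free scaling (adjusted p = 0.040) and without DU145 repeat 1 (adjusted p = 0.014). For TEAD3, LNCaP lay above VCAP without either DU145 repeat (adjusted p = 0.039 and 0.038), and DU145 above PC3 without DU145 repeat 2 (adjusted p = 0.031). TEAD3 differed by 1.01 ± 0.16 between the 2 sets of lines (adjusted p = 0.00051, limma), and after quantile normalization by 0.45 (adjusted p = 0.027, limma), where its F test across the 5 lines missed the threshold (adjusted p = 0.064). TEAD4 differed by 0.61 ± 0.12 (adjusted p = 0.0019, limma), but by only 0.04 under quantile normalization and 0.17 under median-ratio scaling (adjusted p = 0.78 and 0.21, limma), and 58.7% of all tested genes had a smaller difference.

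The summed TEAD level was 121 ± 3.92 TPM in PC3, 99.4 ± 5.2 in DU145, 38.8 ± 1.37 in DUCAP, 38.5 ± 2.94 in VCAP and 28.6 ± 1.85 in LNCaP (SD, n = 2). The leading paralog changed with the line. TEAD1 held 65.7% ± 0.47 of the sum in DUCAP, 60.8% ± 2.33 in VCAP and 50.8% ± 3.41 in DU145, whereas TEAD2 held 55.5% ± 1.91 in PC3. In LNCaP no paralog had a majority, with 34.5% ± 2.06 for TEAD4, 30.4% ± 0.93 for TEAD3 and 21.7% ± 0.07 for TEAD1 (SD, n = 2 each).

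Of the 4 target genes, CCN1 and CCN2 lay in LNCaP at or below their levels in DUCAP and VCAP, ANKRD1 was listed at 0 in all 3 lines, and AMOTL2 was higher in LNCaP. CCN1 (chr1:85580761-85583950), a secreted matrix-associated protein also called CYR61, stood at 225 and 387 TPM in the DU145 repeats, at 224 and 272 in PC3, at 6.83 and 7.70 in VCAP, at 7.05 and 5.37 in DUCAP and at 5.04 and 5.16 in LNCaP. Every sample of LNCaP, DUCAP and VCAP was at 7.70 TPM or less, and no sample of DU145 or PC3 was under 223.62 TPM. Between the 2 sets of lines CCN1 differed by 5.25 ± 0.16 (adjusted p = 4.0e-08, limma). PC3 exceeded VCAP, the nearest of the low lines, by 34.1-fold in mean TPM (4.91 ± 0.25, adjusted p = 9.1e-07, limma). LNCaP lay 0.23 ± 0.25 below DUCAP and 0.44 ± 0.25 below VCAP (adjusted p = 0.47 and 0.17, limma), and these gaps grew to 0.95 and 0.92 under quantile normalization (adjusted p = 0.0074 for both) and to 0.90 and 0.91 under median-ratio scaling (adjusted p = 0.021 and 0.019). DU145 and PC3 did not pass the test against each other (0.26 ± 0.25, adjusted p = 0.43, limma), but did without DU145 repeat 1 (adjusted p = 0.027).

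CCN2 (chr6:131948176-131951372), the related connective tissue growth factor whose 3 motif copies are shown above, stood at 96.1 and 169 TPM in the PC3 repeats, at 29.7 and 26.4 in DU145, at 0.07 and 0.37 in VCAP and at 0.02 and 0 in DUCAP, and was listed at 0 in both LNCaP repeats. The 3 low lines stayed under 0.4 TPM, so that no fold is given against LNCaP or DUCAP. PC3 exceeded DU145 by 4.72-fold in mean TPM (2.15 ± 0.26, adjusted p = 0.00024, limma), which is the same order as for WWTR1. DU145 exceeded VCAP by 4.58 ± 0.26 on the log2(TPM + 1) scale (adjusted p = 1.9e-06, limma). The difference between the 2 sets of lines was 5.83 ± 0.17 with 1 TPM added to each value (adjusted p = 2.8e-08, limma) and 8.68 with 0.1 TPM added.

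ANKRD1 (chr10:90912096-90921087), a nuclear ankyrin-repeat protein best known from heart muscle, was listed at 0 in all 6 samples of LNCaP, DUCAP and VCAP, at 9.65 and 10.5 TPM in DU145, and at 0.30 and 0.17 TPM in PC3. Of the 4 targets it alone was high in a single line. DU145 exceeded PC3 by 3.17 ± 0.11 on the log2(TPM + 1) scale (adjusted p = 3.3e-07, limma). The low PC3 values passed the test against each line at 0 (0.30 ± 0.11, adjusted p 0.041 to 0.048, limma), but no longer with the repeat number as a block (adjusted p 0.061 to 0.069) or after quantile or median-ratio scaling. The difference between the 2 sets of lines (1.89 ± 0.07 on this scale, adjusted p = 1.2e-07, limma) depends on the added TPM and is no fold.

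AMOTL2 (chr3:134355345-134375417), an angiomotin-family protein that also holds YAP back at cell junctions, stood at 151 and 114 TPM in the DU145 repeats, at 24.2 and 23.8 in PC3, at 2.98 and 3.58 in LNCaP, at 1.5 and 1.54 in VCAP and at 0.02 and 0.02 in DUCAP. All 5 lines were separated, from DU145 down to DUCAP. Each of the 4 steps between neighbouring lines passed the test: DU145 lay 2.40 ± 0.17 above PC3, PC3 2.55 ± 0.17 above LNCaP, LNCaP 0.76 ± 0.17 above VCAP, and VCAP 1.3 ± 0.17 above DUCAP. The step from LNCaP to VCAP had an adjusted p of 0.0050 in limma, but 0.12 under quantile normalization and 0.091 under median-ratio scaling. Between the 2 sets of lines AMOTL2 differed by 4.69 ± 0.11 (adjusted p = 1.3e-08, limma). AMOTL2 was the only 1 of the 4 targets that shared with YAP1 a higher level in LNCaP than in both DUCAP and VCAP.

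Over all 10 pairs of lines, 73 of 100 comparisons of a gene were called. Between LNCaP and DUCAP 6 genes were called (4 higher in LNCaP, 2 in DUCAP), against 60.7% of all tested genes. Between LNCaP and VCAP 4 genes were called, against 60.1%. The pair DUCAP and VCAP had 2 called genes, YAP1 and AMOTL2 in opposite directions, against 18.3%. These 3 shares are near or below those of all genes. LNCaP and DU145 differed in all 10 genes (55.9% of all tested genes), as did DUCAP and DU145 (66.6%) and VCAP and DU145 (65.4%), each time with DU145 higher. Calls of TEAD1, TEAD3 and TEAD4 among these were not all stable. TEAD1 between DUCAP and DU145 was lost under quantile normalization and median-ratio scaling (adjusted p = 0.28 and 0.22, limma). TEAD3 between LNCaP and DU145 (adjusted p = 0.047, limma) was lost under 4 other settings and in 9 of 10 fits that left out 1 sample, the exception being DU145 repeat 2 (adjusted p 0.050 to 0.23). TEAD4 between DUCAP and DU145 went from 0.83 higher in DU145 to 0.02 higher in DUCAP under quantile normalization. Between VCAP and DU145, TEAD3 and TEAD4 were lost there (adjusted p = 0.059 and 0.34, limma). Under median-ratio scaling TEAD4 was lost between DU145 and both DUCAP and VCAP (adjusted p = 0.66 and 0.12, limma). Against PC3, 8 genes were called in LNCaP (57.7% of all tested genes), 8 in DUCAP (67.8%) and 9 in VCAP (67.6%), all higher in PC3. TEAD1 between VCAP and PC3 (0.35 higher in PC3, adjusted p = 0.048, limma) turned to 0.36 higher in VCAP under quantile normalization, 0.23 under median-ratio and 0.04 under mitochondria-free scaling, none called. It was also lost with the repeat number as a block (adjusted p = 0.057) and in 8 of 10 fits that left out 1 sample (each sample of LNCaP, DUCAP, VCAP or PC3; adjusted p 0.061 to 0.15). Under quantile normalization TEAD3 was no longer called against PC3 in DUCAP (adjusted p = 0.15) or VCAP (adjusted p = 0.64). The VCAP call was also lost under median-ratio and mitochondria-free scaling (adjusted p = 0.33 and 0.16, limma). This TEAD3 difference was 0.82 in the main fit, 0.62 without VCAP repeat 2 and 0.70 without PC3 repeat 1. DU145 and PC3 differed in 6 genes, against 49.3%: TEAD1, ANKRD1 and AMOTL2 were higher in DU145, and WWTR1, TEAD2 and CCN2 in PC3.

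**Figure D3:**
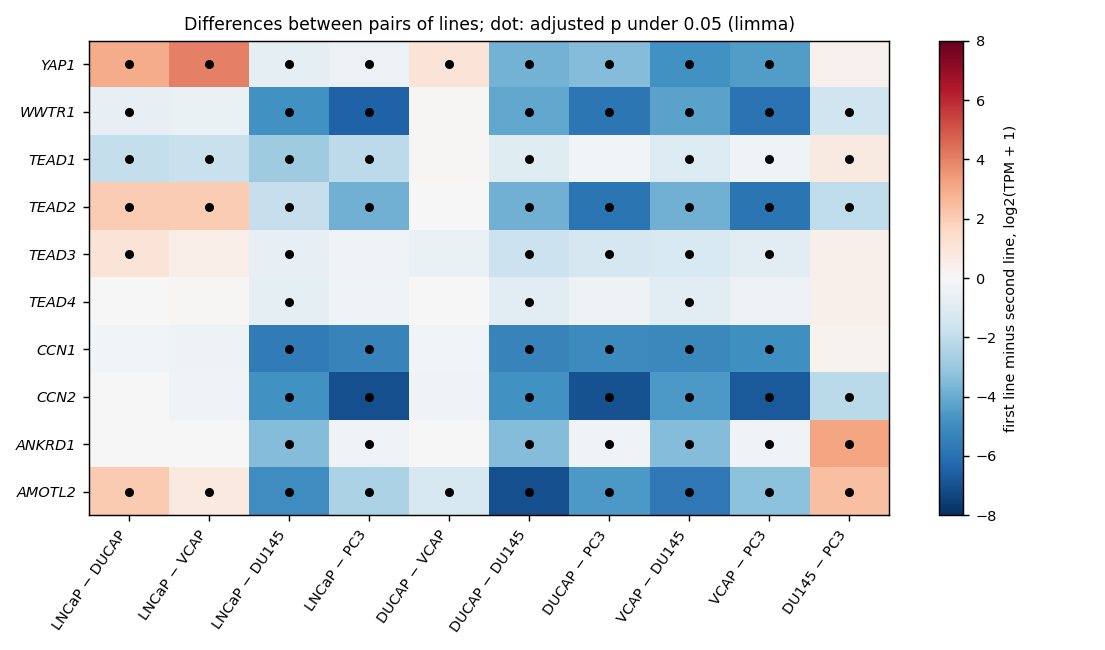
The heat map gives for each gene (rows) and each of the 10 pairs of lines (columns) the first line's mean minus the second line's mean on the log2(TPM + 1) scale, red where the first is higher, and a dot where limma's adjusted p was under 0.05. The 3 columns that set a line against DU145 are blue with dots in all 10 rows, and the DUCAP and VCAP column has 2 dots.

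The regulators upstream of YAP and TAZ were counted in the same comparison of the 2 sets of lines. Of 7 Hippo kinases and adaptors, 5 were higher in DU145 and PC3 and 2 lower (51.9 and 22.5% of all tested genes), with a median difference of 0.85 beside 0.40 for all tested genes. After quantile normalization 3 were higher. With so few genes these counts are near the shares of all genes. The largest increases were in MOB1A (1.89 ± 0.11), a co-activator of the LATS kinases, and SAV1 (1.84 ± 0.10), the scaffold of STK3 and STK4. The 2 decreases were in LATS1 (0.94 lower) and STK3 (0.73 lower), both called. LATS1, a kinase that phosphorylates YAP and TAZ directly, was at 13.6 to 18.6 TPM in the 6 samples of LNCaP, DUCAP and VCAP and at 6.96 to 8.44 TPM in DU145 and PC3, without overlap. Its paralog LATS2, itself a YAP target, went the opposite way, with 1.58 to 3.15 TPM in the first 3 lines, 19.1 and 11.6 in DU145, and 5.09 and 5.82 in PC3 (difference 1.66 ± 0.14). STK3 overlapped between the sets, since PC3 was low (4.86 and 5.34 TPM, against 14.5 to 23.4 in the other 4 lines).

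Of 20 upstream and junctional regulators, 19 were tested, of which 14 were higher in DU145 and PC3 and 2 lower (51.9 and 22.5% of all tested genes), with a median of 1.02. FAT4, one of the 14, reached 1 TPM in DU145 only. FRMD6, a FERM-domain protein that promotes Hippo signaling, rose most (5.46 ± 0.15), from at most 1.31 TPM in LNCaP, DUCAP and VCAP to 38.4 and 56.9 TPM in DU145 and 109 and 74.2 in PC3. AJUBA, a LIM protein that binds and restrains LATS kinases, followed (3.06 ± 0.16). The 2 decreases were in WWC1 (0.90 lower) and TAOK1 (0.33 lower, adjusted p = 0.032, limma). The TAOK1 call was lost in 7 of the 10 fits that left out 1 sample (adjusted p 0.060 to 0.091; either repeat of LNCaP or PC3, or repeat 2 of DUCAP, VCAP or DU145), and DU145 lay 0.88 above LNCaP for this gene (adjusted p = 0.0035, limma). WWC1, also called KIBRA, was low in PC3, at 14.5 and 9.75 TPM against 49.1 to 70.0 in the other 8 samples. NF2, the tumor suppressor merlin, was 1.53 ± 0.17 higher in DU145 and PC3. FAT1, AMOT and AMOTL1 did not pass the test, and DCHS1 stayed under 1 TPM in every sample. Under quantile normalization 10 of these genes were higher and 5 lower, and median-ratio scaling gave 12 and 4.

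Vestigial-like proteins compete with YAP and TAZ for TEAD factors or act as their cofactors. VGLL4, an antagonist of YAP, was the only member of this family with a sizeable level in every line (11.9 to 45.1 TPM, with overlap between the sets, difference 0.50 ± 0.15). Its direction depended on the scaling: the difference was −0.05 under quantile normalization and 0.05 under median-ratio scaling (adjusted p = 0.77 and 0.75, limma). VGLL3 was at 2.62 and 1.42 TPM in PC3 and at most 0.01 TPM elsewhere, so that its call (0.78 ± 0.11) rests on PC3. VGLL1 reached 0.14 TPM at most, and VGLL2 was listed at 0 throughout.

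The 18 further genes of a published YAP/TAZ target signature mostly differed between the 2 sets of lines in the same direction as the 4 target genes above. Of 17 tested, 16 were higher in DU145 and PC3 and 0 were lower (51.9 and 22.5% of all tested genes), with a median difference of 2.30. For 6 of the 16 (MYOF, AXL, CCDC80, NT5E, TGFB2 and RBMS3) this was fixed by the filter, as they stayed under 1 TPM in LNCaP, DUCAP and VCAP and entered the test through DU145 and PC3. Of the other 11 tested, 10 were higher and 0 lower, while of the 15855 tested genes that reached 1 TPM in any of those 3 lines 47.1% were higher. A higher mean did not always hold in both lines: NUAK2 in PC3 lay below LNCaP, DUCAP and VCAP (0.67 to 1.78 lower, each called), and its higher call was lost under 4 other settings and without PC3 repeat 1. IGFBP3 in DU145 lay 1.48 below VCAP (called), and F3 was at a mean of 1.45 TPM in PC3 and 2.48 TPM in VCAP (not called). Without the filter on low values FOXF2, which stayed under 0.4 TPM in every sample, was called lower. AXL, a receptor tyrosine kinase, was at most 0.12 TPM in LNCaP, DUCAP and VCAP, 300.4 and 334 TPM in DU145, and 129 and 98.8 TPM in PC3 (difference 7.52 ± 0.11). MYOF, a membrane repair protein, was at most 0.78 TPM in the first 3 lines, 377 and 230 TPM in DU145, and 162 and 169 TPM in PC3 (7.26 ± 0.16). ARHGEF17 was the tested gene that missed the threshold (0.38, adjusted p = 0.14, limma). LATS2 and PTPN14 stand in this list and in one of the lists above.

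**Figure D4:**
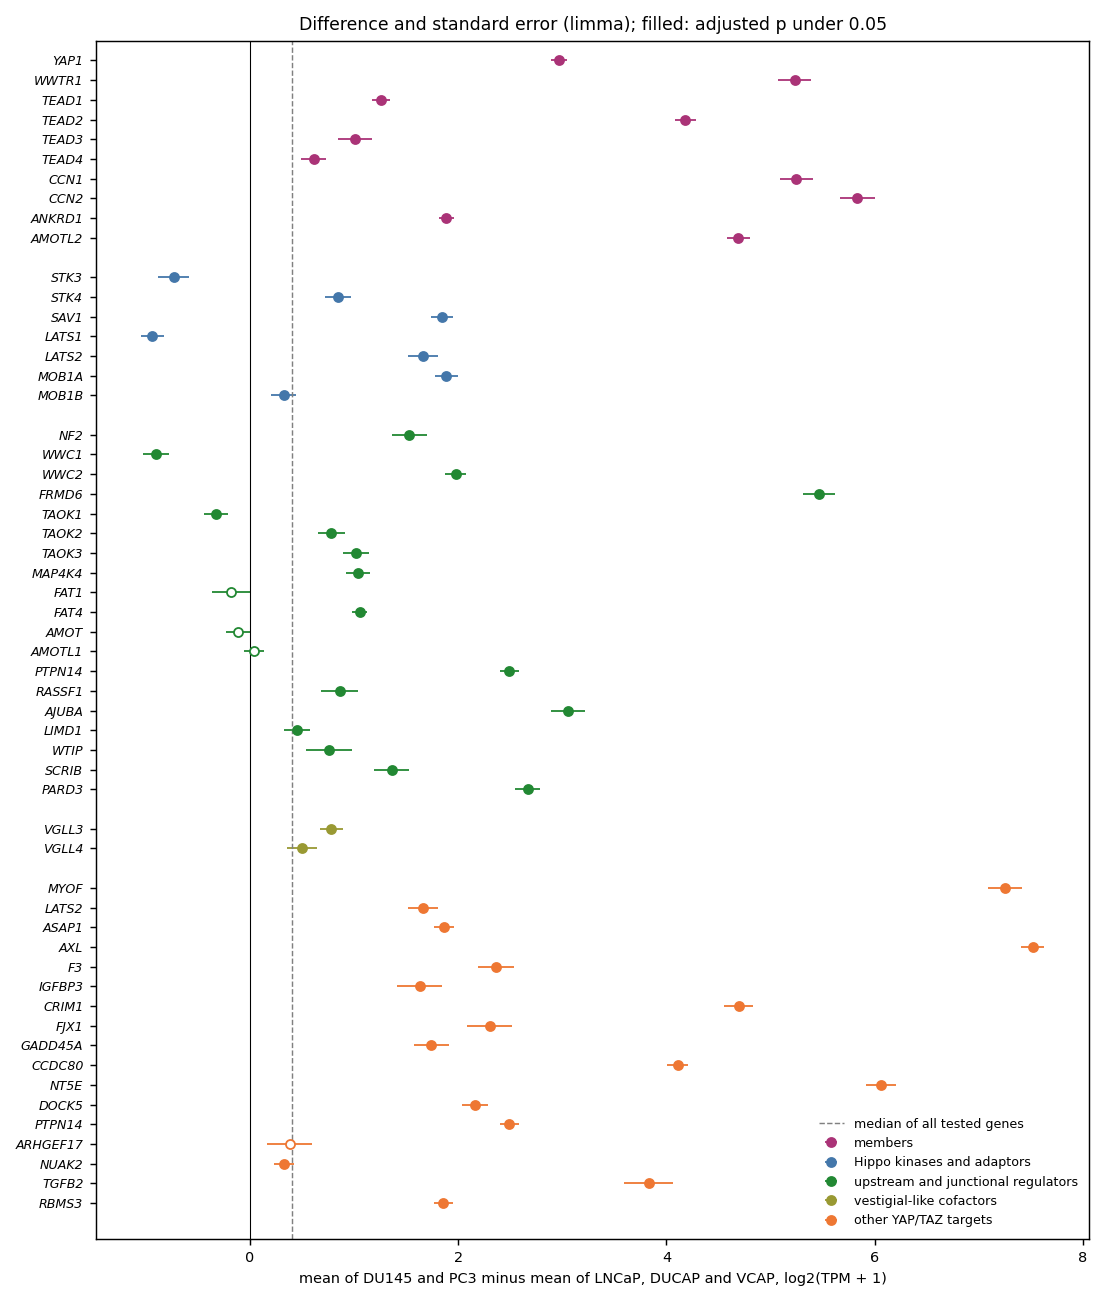
The dot plot gives for each tested gene the mean of DU145 and PC3 minus the mean of LNCaP, DUCAP and VCAP on the log2(TPM + 1) scale, with its standard error as a bar, grouped by list and filled where limma's adjusted p was under 0.05. The dashed line marks the median of all 17520 tested genes at 0.40, most target genes lie well to its right, and LATS1, STK3, WWC1 and TAOK1 are the filled points left of 0.

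These 17 targets were also compared within the sets of lines. LNCaP was higher than DUCAP in 3 of them and lower in 4 (60.7% of all tested genes were called in either direction). It was higher than VCAP in 2 and lower in 5 (60.1%). Both shares of called targets are below those of all tested genes. The median differences were 0.01 and −0.23 beside 0.55 and 0.38 for all tested genes. The 6 targets under 1 TPM in LNCaP, DUCAP and VCAP have little room to differ on the log2(TPM + 1) scale. They are part of these counts and medians. After quantile normalization LNCaP was higher than DUCAP in 1 and lower in 7. DU145 was higher than PC3 in 13 of the 17 and lower in 3 (49.3% of all tested genes were called in either direction). The median difference was 1.09 beside 0 for all tested genes. The genes next named were chosen after their values were seen. The widest gaps were in F3, the tissue factor of coagulation, at 40.5 and 53.9 TPM in DU145 and 1.08 and 1.81 in PC3 (4.30 ± 0.27, adjusted p = 6.0e-06, limma), and NUAK2, a kinase, at 17.8 and 19.4 TPM in DU145 and 1.11 and 0.88 in PC3 (3.3 ± 0.15, adjusted p = 1.1e-06, limma). IGFBP3, GADD45A and ASAP1 were the 3 genes higher in PC3. The counts for DU145 over PC3 were 9 and 3 with 0.1 TPM added and 10 and 3 without the filter, and from 10 to 12 higher and 2 to 3 lower when single samples were left out.

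The genes whose levels resembled those of a co-activator most closely over the 10 samples were found by Pearson's r of log2(TPM + 1), where the repeats of a line count as separate points and 5 lines set most of the pattern. For YAP1 these were DTNBP1, ABHD14B and LAMP1 (r = 0.993 for each), all high in LNCaP, DU145 and PC3. LAMP1, a lysosomal membrane protein, was at a mean of 61.4 TPM in LNCaP, 12.3 in DUCAP, 8.53 in VCAP, 90.0 in DU145 and 97.5 in PC3. For WWTR1 they were CTHRC1, PMP22 and NECAP2 (r = 0.994 for each), and for CCN1 AC022613.1, CAV1 and RPL39L (r = 0.998, 0.998 and 0.997). CAV1, the coat protein of caveolae, was at most 0.78 TPM in LNCaP, DUCAP and VCAP and at least 216 TPM in DU145 and PC3. With 5 lines such likeness was common: 522 genes had an r above 0.95 with YAP1, 405 with WWTR1 and 470 with CCN1.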

How the data were processed

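Bulk mRNA of 5 prostate cancer cell lines, untreated, was sequenced by the study from stranded polyA libraries, in 2 biological repeats each, and samples were grouped by the deposited labels. The submitters' processing notes name FastQC 0.11.9, Trim Galore 0.6.5, STAR 2.7.2b and RSEM 1.3.3 on GRCh38. The authors deposited RSEM's TPM per gene symbol, unfiltered and without stated scaling between samples. How rows that share a symbol were merged is not given in the sources used here. Column sums were 982880 to 991998 TPM. Since depth cannot be read from TPM, intervals and floors were not computed, and precision rests on 2 repeats per line.

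log2(TPM + 1) of 17520 genes (at least 1 TPM in at least 2 samples) was fitted over all 10 samples in limma 3.58.1 (R 4.3.3), each line having its own coefficient, with a trended prior variance. The F test across lines, the mean of DU145 and PC3 minus the mean of LNCaP, DUCAP and VCAP, and all 10 pairs of lines were adjusted by Benjamini-Hochberg within each comparison. The members, gene lists, grouping of lines and tests were chosen with earlier results of these data known. Lists are described by counts and medians without a set test. Named were all 10 members, the 2 largest called changes each way per list, LATS1, LATS2, NF2, genes under 1 TPM throughout, and the 3 genes most correlated with YAP1, WWTR1 and CCN1. Gene positions and promoters are from RefSeq (GRCh38.p14), with all 10 members matched by symbol for positions and 7 for promoters. The supplied genome is of another build and was not used.

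The fit was tested on simulated data of 17520 genes with 200 changed by 1.5 (log2). It recovered 89.5% in the comparison of the 2 sets of lines, 68.5% in the F test and 63.5% between VCAP and DU145, with 5.79, 6.16 and 7.97% of calls false. Apart from the 200 changed genes, each simulated gene had the same mean in all lines, and its spread was the same in all lines. In the data most genes differed between lines and the DU145 repeats lay farther apart, so these rates need not carry over. Repeat numbers did not pair the samples over all lines (mean correlation of same-numbered deviations 0.0092 over 10 pairs of lines, range −0.19 to 0.25). The pairs among DUCAP, VCAP and DU145 were all positive (0.18 to 0.25), while the other pairs ran from −0.19 to 0.053. Whether those 3 lines share an effect of the repeat was not tested. Alternatives were another pseudocount, filters, quantile, median-ratio and mitochondria-free scaling, an untrended variance, the repeat number as a block, a 2-fold requirement and each sample left out.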

Additional observations from a re-analysis of the deposited data

How the results depend on the processing

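Quantile normalization and median-ratio scaling moved the median difference of all genes from 0.40 to −0.07 and 0.02 (log2), and rescaling without mitochondrial genes to 0.22, which took the share of higher calls from 69.8% to 46.9, 52.1 and 61.3%. Of all genes, 9093 were higher and 3940 lower in DU145 and PC3, against 6019 and 6825 under quantile normalization, 6616 and 6092 under median-ratio scaling, and 4677 and 1467 with a 2-fold requirement. The members called higher numbered 10, and 9 under quantile normalization and median-ratio scaling, both without TEAD4 (0.04 and 0.17), and 9 with the 2-fold requirement. The member calls over pairs of lines numbered 73, and 66 to 79 over the alternatives. Of the Hippo kinases and adaptors, 3 in place of 5 were higher after quantile normalization. Of the upstream and junctional regulators, 5 and 4 in place of 2 were lower under these 2 scalings, and 1 to 2 when single samples were left out (1 without either LNCaP or PC3 repeat, or without repeat 2 of DUCAP, VCAP or DU145). Of the vestigial-like cofactors, 1 in place of 2 was higher with at least 5 TPM required and under quantile, median-ratio and mitochondria-free scaling, and 1 to 2 when single samples were left out (1 without PC3 repeat 1). Of the other targets, 1 in place of 0 was lower without the filter. The cause of these changes was not tested. With the repeat number as a block, which the samples share only as a number, 9080 genes were higher and 3927 lower, 69 pair calls of members remained in number, and 4 of the Hippo kinases and adaptors were higher. The difference between the 2 sets of lines in the log2 ratio of YAP1 to WWTR1 stayed negative, from −2.69 to −1.68. It never passed the threshold in the permutation over samples, which counts repeats of a line as separate units.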

Other observations

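The angiomotins, scaffolds that bind YAP at cell junctions, were spread unevenly over the lines. They are described after their values were seen. AMOTL1 stood at 24.5 and 25.8 TPM in the VCAP repeats, at 16.3 and 19.2 in DUCAP, at 8.70 and 8.62 in PC3, at 7.63 and 7.68 in DU145 and at 0.52 and 0.36 in LNCaP, so that it was highest in DUCAP and VCAP. That is unlike AMOTL2, which was highest in DU145 and lowest in DUCAP. LNCaP lay 2.59 ± 0.15 below DU145 for AMOTL1 (log2 difference and SE, adjusted p = 2.2e-06, limma). AMOT was low in every line, at 4.09 and 5.00 TPM in LNCaP, 3.18 and 3.03 in DU145 and at most 1.51 TPM in the other 3 lines. LNCaP and DU145 did not pass the test for AMOT (0.43 ± 0.18, adjusted p = 0.072, limma).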
